A study of Homo sapiens with 2 samples.

Results

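The TNF ligand and receptor superfamilies were followed in SUM-159, an established line of human breast cancer cells of the triple-negative kind, with and without the super-enhancer named for PD-L1 and PD-L2 (PD-L1L2-SE). Members were taken by name, not by their values: protein-coding genes whose symbol starts with TNFSF or TNFRSF, together with TNF, LTA, LTB, LTBR, FAS, FASLG, CD40, CD40LG, CD70, CD27, NGFR, EDAR and RELT. This gave 46 genes of the 19853 protein-coding genes in the table, made up of 28 receptors, 17 ligands and the read-through gene TNFSF12-TNFSF13. RNA sequencing covered 1 library of cells labelled PD-L1L2-SE deficient and 1 of cells labelled sgVector, the control, and both groups are the same cell line with no treatment or time named in the labels. The labels do not say whether the deficient cells were a clone or a pool. With 1 library per group no difference has a replicate check. Each interval of a single gene's ratio below is the 95% Clopper-Pearson range of a ratio of read shares. These ranges cover counting error only and not variation between libraries. The labels name no molecular identifiers, so PCR copies of a molecule may be counted more than once and the ranges may be too narrow.

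Ligands of this family are mostly trimeric membrane proteins that can be shed, and they cluster their receptors at the cell surface. Receptors with a cytoplasmic death domain recruit adaptors such as FADD and TRADD and can start apoptosis, receptors without one bind TRAF proteins and switch on NF-kB and MAP kinases, and decoys bind ligand without a full signal. In tumours the family is known for killing by FAS ligand and TRAIL and for costimulation of T cells through partners of 4-1BB, CD27 and CD40. Levels are given as RPKM, reads per kilobase of exon length and 1000000 reads on genes, so they can be compared between genes. The log2 ratio sets the deficient library over sgVector after 0.1 RPKM is added to each, and the floor for counting a gene is a mean of at least 1 RPKM over both libraries.

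The deposited values corresponded to 16381546 reads for deficient cells and 16206675 for sgVector cells. CD274, which encodes PD-L1, had 47 reads in the deficient library against 477, and PDCD1LG2, which encodes PD-L2, 46 against 204, so both were lower in the library labelled deficient. All 7 markers listed for basal and mesenchymal breast lines passed the floor in these cells, with 152371 against 161538 reads over that list. Among them VIM stood at 390 against 746 RPKM and FN1 at 297 against 229 RPKM. Of 8 luminal markers 5 passed the floor (GATA3, KRT8, KRT18, FOXA1 and ERBB2). The luminal list had 4670 against 4917 reads, with KRT18 at 21.1 against 28.9 RPKM. The hormone receptor genes of that list were at or near 0, PGR with no read in either library and ESR1 with 6 against 2. Of 18 leukocyte markers only CD14 and NCAM1 passed it, 5 had no read in either library and the pan-leukocyte gene PTPRC had 0 reads against 4. Summed over the leukocyte list the reads were 1986 against 1741, most of them from CD14 and NCAM1. Of the endothelial markers only ERG passed the floor, and that list had 178 against 165 reads. Mitochondrial genes took 6.50% of reads in deficient cells and 7.99% in sgVector cells.

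Sequence just upstream of the transcription start is shown for the death receptor genes FAS and TNFRSF21, the receptors farthest above and below the control among those past the floor, and for TNFAIP3, an NF-kB feedback gene with the highest ratio of the signalling genes past the floor. Each run holds the 250 bases before the start from RefSeq windows on GRCh38.p14, 5′ to 3′ on the gene's strand, with motif matches in capitals. FAS lies at chr10:88990548-88990797 on the plus strand (the first of 3 windows), TNFRSF21 at chr6:47309906-47310155 on the minus strand and TNFAIP3 at chr6:137867009-137867258 on the plus strand.
FAS: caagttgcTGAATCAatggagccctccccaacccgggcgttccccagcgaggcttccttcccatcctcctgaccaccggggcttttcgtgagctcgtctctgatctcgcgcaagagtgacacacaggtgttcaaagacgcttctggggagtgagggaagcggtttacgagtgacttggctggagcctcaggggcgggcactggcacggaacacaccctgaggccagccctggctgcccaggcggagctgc
TNFRSF21: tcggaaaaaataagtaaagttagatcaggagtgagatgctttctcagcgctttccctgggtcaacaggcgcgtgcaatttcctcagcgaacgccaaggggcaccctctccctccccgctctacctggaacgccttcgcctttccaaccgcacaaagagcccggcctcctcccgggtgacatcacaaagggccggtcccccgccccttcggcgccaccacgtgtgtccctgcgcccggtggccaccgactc
TNFAIP3: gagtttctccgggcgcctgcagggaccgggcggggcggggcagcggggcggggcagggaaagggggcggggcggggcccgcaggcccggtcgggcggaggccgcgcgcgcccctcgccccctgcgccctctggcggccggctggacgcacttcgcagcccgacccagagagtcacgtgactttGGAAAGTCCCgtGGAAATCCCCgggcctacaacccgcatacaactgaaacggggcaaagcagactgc

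Whole windows of 300 bases, which add 50 bases after the start, were searched on both strands for 4 motifs. These were the kappa-B consensus, the interferon-stimulated response element core GAAANNGAAA, the interferon-gamma activated sequence TTCNNNGAA and the AP-1-like pattern TGANTCA. The last allows any base at its centre, so it is looser than the AP-1 consensus. The TNFAIP3 window held a pair of separate kappa-B matches, and a kappa-B match stood in 11.3% of all 35116 windows. The upstream FAS window held 1 match to the AP-1-like pattern, TGAATCA with A at the centre, and 7.71% of windows held this pattern. The third FAS window, the farthest downstream, held 1 kappa-B match, and the other FAS windows, the printed one among them, held none. No letters of any of the 4 motifs were in the TNFRSF21 window. Windows were listed for 10 of the 17 members past the floor, and 3 of these 10 genes (FAS, TNFRSF9 and TNFRSF14) held a kappa-B match in any of their windows, with overlapping matches in the last 2, as did 13.3% of all 27305 genes with a window. The interferon element core, found in 3.57% of windows, stood in TNFRSF1B and TNFSF9. TTCNNNGAA, found in 7.66%, stood in TNFRSF9, which also held 1 match to the AP-1-like pattern. A match describes the letters and is not a binding site.

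The floor was passed by 17 of the 46 members, 14 receptors and 3 ligands, and by 10576 of all 19853 protein-coding genes. A further 8 members had at least 20 reads over both libraries. Another 13 had 1 to 19 reads and 8 had none. At this depth the 8 cannot be compared, and any difference in the 13 rests on very few reads. Receptors far outweighed ligands, with a summed level of 244 RPKM in deficient and 271 RPKM in sgVector cells against 11.9 and 11.5 RPKM for the ligands. The 4 most abundant receptors, TNFRSF1A, LTBR, TNFRSF10B and TNFRSF12A, held 78.1% of the receptor sum in deficient and 77.5% in sgVector cells.

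**Figure D1:**
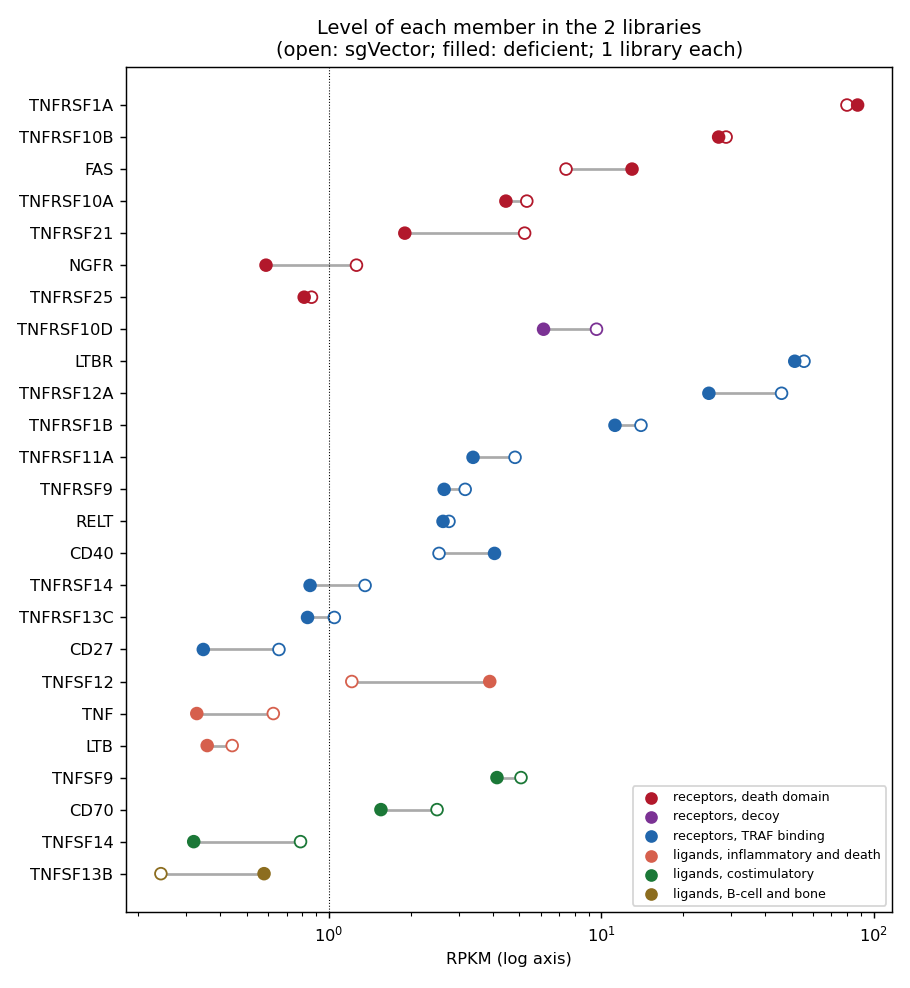
RPKM on a log axis of the 25 members that passed the floor or reached 20 reads in sum, grouped by role, with the sgVector library as open and the deficient library as filled points. Receptors reach up to TNFRSF1A at 87.3 RPKM, while no ligand exceeds 5.08 RPKM. The dotted line marks 1 RPKM.

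Among the 17 members past the floor, only TNFSF12 exceeded the control by 2-fold or more and only TNFRSF21 stood that far below it. Over all 10576 protein-coding genes past the floor 2.10% were higher and 2.07% lower by this rule, and a count of 1 in 17 is too small to be read against such shares. At 1.5-fold 3 members were higher (TNFSF12, FAS and CD40), 17.6% of the 17 against 6.92% of all genes, and 5 were lower (TNFRSF21, TNFRSF12A, CD70, TNFRSF10D and TNFRSF14), 29.4% against 8.67%. The 14 receptors had a median log2 ratio of -0.25 and the 3 ligands -0.29, beside -0.03 over all protein-coding genes. TMM scaling, a pseudocount of 1 RPKM, or a correction on GC content and length each took TNFRSF14, TNFRSF10D and CD70 below 1.5-fold and left 2 lower members, TNFRSF21 and TNFRSF12A, while CD40 lost 1.5-fold with the pseudocount of 1 RPKM. Counts this small describe these genes and are not a property of the family. With the whole counting interval past the fold, 2 members stayed above 1.5-fold (TNFSF12 and FAS, 3.95% of all genes) and 2 below it (TNFRSF21 and TNFRSF12A, 3.81%). TNFSF12 and TNFRSF21 also had whole intervals past 2-fold, as did 1.31% of all genes above and 1.04% below, and no member reached 4-fold, which 0.425% of all genes did above and 0.246% below.

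**Figure D2:**
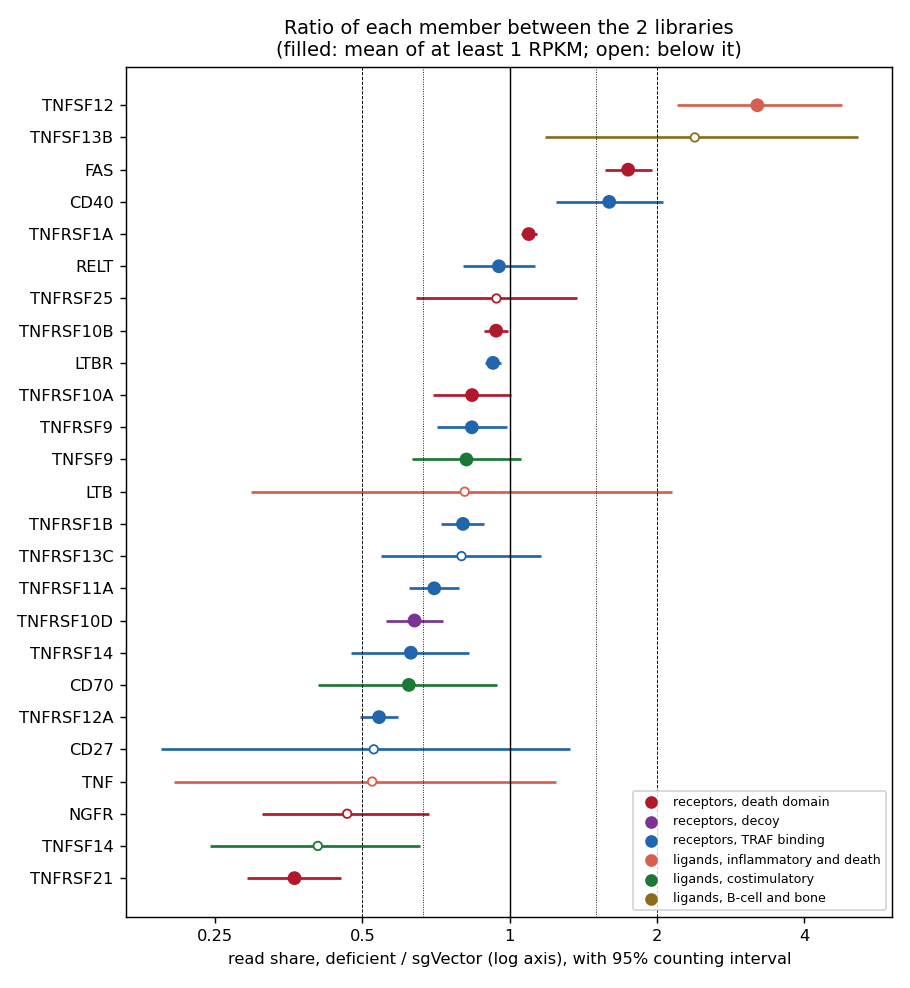
Read share in the deficient over the sgVector library for the same 25 members, on a log axis with the 95% counting interval as bars; filled points passed the floor, dotted lines mark 1.5-fold and dashed lines 2-fold. TNFSF12 lies at 3.21 and TNFRSF21 at 0.363, and the widest bars belong to members with few reads such as CD27, TNF and LTB.

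**Figure D3:**
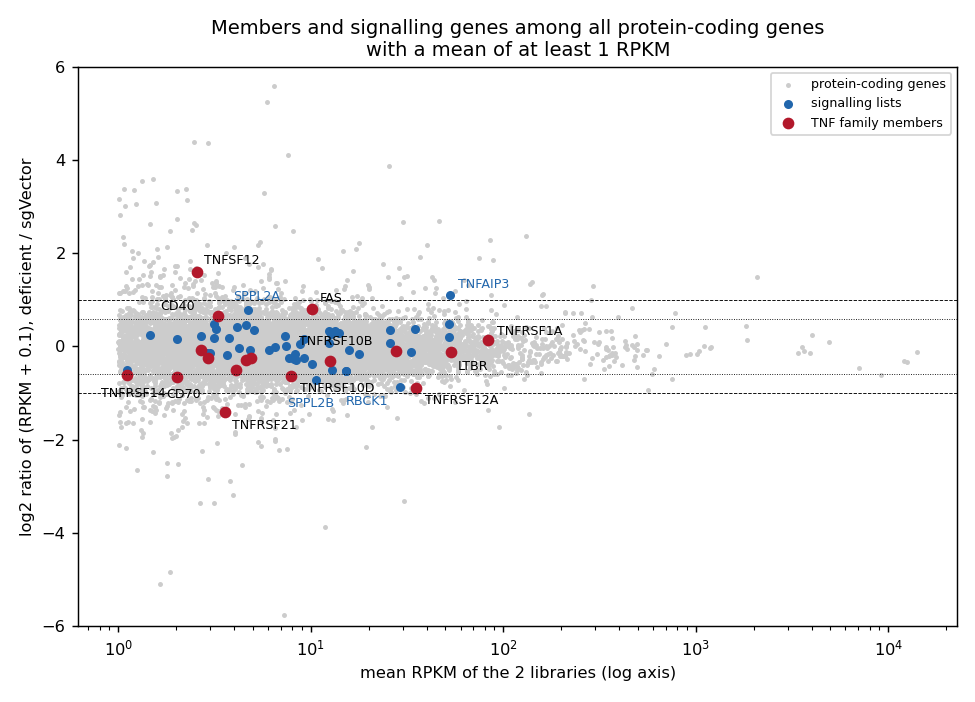
Log2 ratio against mean RPKM (log axis) for all 10576 protein-coding genes past the floor in grey, with the members in red and the signalling genes in blue. Members lie between -1.41 and 1.60, inside the range of the other genes, and the 3 most abundant receptors (TNFRSF1A, LTBR and TNFRSF12A by mean level) lie at 0.13, -0.11 and -0.88.

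Death-domain receptors went in different directions. FAS (ENSG00000026103), the receptor of FAS ligand, stood at 13.0 RPKM (904 reads) in the deficient library and at 7.43 RPKM (512 reads) in sgVector, 1.75-fold higher (1.57 to 1.95). TNFRSF21, which encodes death receptor 6, stood at 1.90 RPKM (112 reads) against 5.23 RPKM (305 reads), 2.75-fold lower (2.21 to 3.45). The FAS and TNFRSF21 intervals thus lie on opposite sides of no change. TNFRSF1A, the main receptor of TNF, was the most abundant member at 87.3 RPKM (5728 reads) against 79.8 RPKM (5179 reads), 1.09-fold higher (1.05 to 1.14). In hg19 coordinates FAS lies on chromosome 10 from 90750339 to 90775542, TNFRSF21 on chromosome 6 from 47199268 to 47277641 and TNFRSF1A on chromosome 12 from 6437923 to 6451280.

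The nerve growth factor receptor gene NGFR, below the floor, had 40 reads against 85, a level of 0.588 against 1.26 RPKM and 2.15-fold lower (1.46 to 3.21). Other rows cover 27.1% of its exon bases, among them NGFR-AS1. TNFRSF25, whose product is death receptor 3, had 57 reads against 60, and EDAR, the ectodysplasin receptor gene, had none in either library.

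TRAIL, the product of TNFSF10, has death receptors encoded by TNFRSF10A and TNFRSF10B and decoys encoded by TNFRSF10C and TNFRSF10D, paralogs side by side on chromosome 8. TNFRSF10B stood at 27.0 against 28.7 RPKM (2279 against 2402 reads) and TNFRSF10A at 4.47 against 5.33 RPKM (216 against 255 reads), 1.19-fold lower with an interval that spans no change (0.992 to 1.44). The decoy TNFRSF10D stood at 6.14 RPKM (356 reads) against 9.61 RPKM (551 reads), 1.56-fold lower (1.37 to 1.79). Death receptors were thus close to the control and the abundant decoy lower. TNFRSF10C had 5 reads against 10, and other rows cover 39.3% of its exon bases.

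Among the 4 TNFRSF10 genes, TRAIL death receptors summed to 4.99 times the decoys in the deficient library and 3.43 times in sgVector by RPKM. This comparison was not planned in advance. TNFRSF10D held 356 of 361 decoy reads in the deficient library and 551 of 561 in sgVector. The ranges given next are of an odds ratio, not of read shares, and also cover counting error only. By reads the death receptors' odds against the decoys were 1.46 times higher in the deficient library (1.26 to 1.69), and 1.47 (1.27 to 1.70) with TNFRSF10B and TNFRSF10D alone. Of their longest transcripts' stretches of 50 bases, 1.27% for TNFRSF10B and 0.831% for TNFRSF10D also occur in another gene. The ligand gene TNFSF10 itself had 12 reads against 3, and TNFRSF11B, the gene of osteoprotegerin, a soluble decoy for TRAIL and RANK ligand, 4 against 12. TNFRSF6B, the soluble decoy of FAS ligand, had no read, but 100% of its exon bases also belong to other rows, so its 0 says little about expression.

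Among the receptors that bind TRAFs, TNFRSF12A, which encodes FN14, the receptor of TWEAK, stood at 24.8 RPKM (752 reads) against 45.9 RPKM (1375 reads), 1.85-fold lower (1.69 to 2.02). Its log2 ratio of -0.88 was -0.59 with the GC and length correction, outside the counting interval. TNFRSF12A was the third most abundant receptor gene in sgVector and the fourth in the deficient library, behind TNFRSF10B. CD40, whose product passes signals of CD40 ligand, went the other way at 4.06 RPKM (168 reads) against 2.54 RPKM (104 reads), 1.60-fold higher (1.24 to 2.06). Of the 8 TRAF-binding receptors past the floor, 7 had a log2 ratio below 0, as did 5669 of all 10576 protein-coding genes, and the median of the 8 was -0.28. RELT, at -0.07, was above 0 with the GC and length correction (0.11) and at 0.00 with TMM scaling.

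LTBR, the lymphotoxin beta receptor gene, was the second most abundant member at 51.3 RPKM (5280 reads) against 55.5 RPKM (5648 reads), 1.08-fold lower (1.04 to 1.12). TNFRSF1B, the second TNF receptor, stood at 11.2 against 14.0 RPKM, 1.25-fold lower (1.13 to 1.38), and TNFRSF11A, which encodes RANK, at 3.38 against 4.83 RPKM, 1.43-fold lower (1.27 to 1.60). TNFRSF14, whose product HVEM binds LIGHT and BTLA, stood 1.59-fold lower (1.21 to 2.11) on 87 reads against 137, and the antisense gene TNFRSF14-AS1 covers 13.4% of its exon bases. TNFRSF9, which encodes the T-cell costimulator 4-1BB, had 275 reads against 325, and RELT 272 against 283, with an interval that spans no change (0.802 to 1.13 times).

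Below the floor, TNFRSF13C, the gene of the BAFF receptor, had 54 reads against 67 and CD27, the receptor of CD70, 8 against 15. Receptors of lymphocytes were at or near 0: TNFRSF13B and TNFRSF17 had no read, TNFRSF4 0 against 1, TNFRSF18 1 against 0 and TNFRSF8 12 against 5. TNFRSF19, the gene of the receptor TROY, had 6 against 4. These values carry no comparison at this depth.

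TNFSF12, which encodes the TWEAK ligand of FN14, had the highest ratio of any member past the floor. It stood at 3.90 RPKM (120 reads) in the deficient library and at 1.22 RPKM (37 reads) in sgVector, 3.21-fold higher (2.20 to 4.77). Its receptor gene TNFRSF12A was lower in the same library, as given above, so the ligand and receptor of this pair differed in opposite directions. TNFSF12 lies on chromosome 17 from 7452208 to 7461207 (hg19), and 33.2% of its exon bases also belong to other rows, mainly the read-through gene TNFSF12-TNFSF13, which is listed at 0 in both libraries. How reads in the shared exons were assigned was not stated in the labels. TNFSF13, the gene of APRIL downstream of it, had 1 read against 2, with 55.5% of its exon bases shared.

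Costimulatory ligands were scarce, and the 3 with at least 20 reads stood below the control. TNFSF9, which encodes the 4-1BB ligand, led all ligands at 4.14 RPKM (113 reads) against 5.08 RPKM (137 reads), 1.23-fold lower with an interval that spans no change (0.948 to 1.59). CD70 stood at 1.55 RPKM (39 reads) against 2.50 RPKM (62 reads), 1.61-fold lower (1.06 to 2.46). TNFSF14, which encodes LIGHT and lies below the floor, had 25 reads against 61, 2.47-fold lower (1.53 to 4.10). These 3 genes lie within 1 stretch of chromosome 19, from 6531010 to 6670599 in hg19, and all 3 stood below the control. The 13 protein-coding genes past the floor within 500 kb of CD70, TNFSF9 among them, had a median log2 ratio of -0.16, and the chromosome as a whole -0.20.

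Of the other costimulatory ligands, TNFSF4, the gene of OX40 ligand, had 9 reads against 10, TNFSF15 1 against 2, TNFSF18 1 against 0, and TNFSF8 and CD40LG none. The inflammatory ligands were near the limit of detection. TNF had 9 reads against 17 (0.328 against 0.626 RPKM) and a ratio whose interval spans no change (0.206 to 1.24 times), LTA 5 against 9 and LTB 9 against 11. FASLG had no read in either library, while its receptor gene FAS was well expressed.

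Both ligand genes of chromosome 13 had more reads in the deficient library. TNFSF13B, which encodes BAFF, had 29 reads against 12, 2.39-fold higher (1.18 to 5.14), from a level of 0.579 against 0.242 RPKM. TNFSF11, the gene of RANK ligand, had 7 reads against 0, at least 2.31-fold higher when 3 reads are set for the 0, with a 95% counting interval of the ratio that starts lower, at 1.43. Chromosome 13 itself stood higher, with a median log2 ratio of 0.46 over 180 protein-coding genes, and the part of this in the values of these ligand genes was not tested.

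Of 29 known ligand and receptor pairs, only TNFSF12 with TNFRSF12A and TNFSF9 with TNFRSF9 had both genes past the floor. In 9 pairs both genes had at least 20 reads, and in 7 pairs a receptor past the floor faced a ligand with fewer. In bulk RNA fewer cells with a transcript and less transcript per cell cannot be told apart.

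Signalling genes downstream of the receptors were taken from 4 lists of 53 genes, of which 48 passed the floor. At 2-fold 1 was higher and 0 lower, and at 1.5-fold 2 were higher and 2 lower (4.17% each, beside 6.92% and 8.67% of all protein-coding genes). TNFAIP3, which encodes A20, the ubiquitin editor that restrains NF-kB after TNF, stood at 72.5 RPKM (5995 reads) against 33.7 RPKM (2759 reads), 2.15-fold higher (2.05 to 2.25). RBCK1, which encodes HOIL-1 of the linear ubiquitin chain complex, stood at 20.5 against 37.7 RPKM, 1.84-fold lower (1.72 to 1.97). Its log2 ratio of -0.88 was -0.63 with the GC and length correction, outside the counting interval. The other members of that complex stood close to the control, with log2 ratios of 0.18 for RNF31, with 39.1% of its exon bases shared, and -0.08 for SHARPIN.

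**Figure D4:**
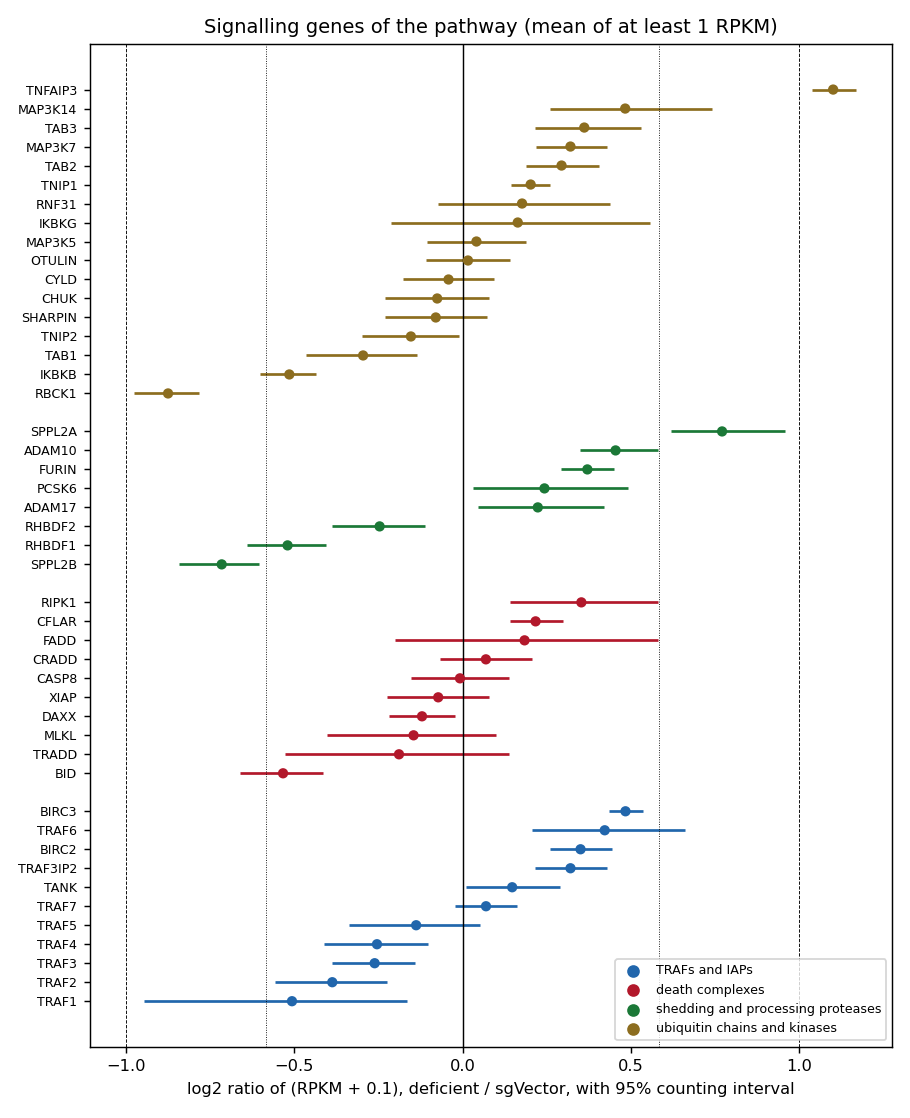
Log2 ratios of 46 of the 48 signalling genes past the floor by list, with the 95% counting interval of the read ratio as bars; dotted lines mark 1.5-fold and dashed lines 2-fold. TNFAIP3 at 1.10 is the only gene beyond 2-fold, and the lists of death complexes and of TRAFs and IAPs hold none beyond 1.5-fold.

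The list of ubiquitin and kinase genes had a median log2 ratio of 0.04 over 17 genes. Besides TNFAIP3 its highest values were 0.48 for MAP3K14, which encodes the kinase NIK of the non-canonical NF-kB branch, and 0.36 for TAB3. After RBCK1 its lowest values were -0.52 for IKBKB, the gene of an IkB kinase, and -0.30 for TAB1. TRAFs and IAPs had a median of 0.07 over 11 genes, with BIRC3, the gene of cIAP2, at 0.48, TRAF6 at 0.42 and BIRC2 at 0.35, and TRAF1, TRAF2 and TRAF3 at -0.51, -0.39 and -0.26.

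Of the genes of the complexes that carry a death signal, 12 passed the floor, with a median log2 ratio of -0.04. None of the 12 reached 1.5-fold, which 6.92% of all protein-coding genes did above and 8.67% below, and so small a list cannot be read against those shares. RIPK1, the gene of a kinase recruited to TNF receptor complexes, had the highest log2 ratio at 0.35, and CFLAR, the gene of the caspase-8 inhibitor c-FLIP, stood at 0.22. The lowest were BID, the gene of a protein that links caspase-8 to mitochondria, at -0.53, 1.45-fold lower (1.33 to 1.58), and TRADD at -0.19. CASP8, the initiator caspase of these receptors, had 768 reads against 764, and FADD, with 54.9% of its exon bases shared with another row, 121 against 105. RIPK3, the kinase gene of necroptosis, had no read in either library. DIABLO, below the floor and named after its value was seen, had 21 reads against 46, 2.21-fold lower (1.29 to 3.91). Other rows cover 30.4% of its exon bases.

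Genes for shedding or processing these ligands and receptors, RHBDF1 and RHBDF2 among them, had a median log2 ratio of 0.23 over 8 genes. SPPL2A, an intramembrane protease gene whose product cleaves TNF and FAS ligand stubs, stood 1.73-fold higher (1.54 to 1.94) on 798 reads against 457. Its relative SPPL2B stood 1.65-fold lower (1.52 to 1.79) on 933 reads against 1524, and other rows cover 21.1% of its exon bases. With the GC and length correction its log2 ratio was -0.52, below 1.5-fold. ADAM10 and FURIN stood at 0.45 and 0.37, ADAM17, the TNF sheddase gene, at 0.22, and RHBDF1 and RHBDF2, whose products bring ADAM17 to the surface, at -0.52 and -0.25. PCSK5, below the floor and named after its value was seen, had 93 reads against 4, a ratio of 23.0 (8.69 to 86.2).

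Genes next to the members were compared because position played no part in choosing them. Around FAS 8 protein-coding genes past the floor lie within 500 kb, and 6 of them had log2 ratios above 0, with a median of 0.44 and a highest value of 2.18. The highest were the interferon-stimulated genes IFIT2, IFIT3 and IFIT1 at 2.18, 1.89 and 1.51, while ACTA2, which overlaps 8.93% of the FAS exon bases, stood at 0.30. Around TNFSF12 29 such genes had a median of -0.16 and none exceeded 0.47, so its 1.60 stood above every neighbour. TNFRSF21 had CD2AP at 0.41 and ADGRF5 at -0.16 beside it, both far from its -1.41. TNFRSF12A at -0.88 had 21 neighbours with a median of -0.09, 7 of them above 0. The lowest of them, HCFC1R1 at -0.73 and THOC6 at -0.71, start 5.84 and 5.58 kb from it. TNFRSF14 at -0.61 had 6 neighbours, all below 0, with a median of -0.28 and PANK4 lowest at -0.59.

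TNFRSF1A stood above every neighbour, and LTBR, close to it on chromosome 12, above the median of its own 22 neighbours (-0.40). All 17 neighbours of TNFRSF1A, LTBR among them, had log2 ratios below 0, with a median of -0.41, against 0.13 for TNFRSF1A itself and -0.11 for LTBR, and the chromosome's median was -0.29. On chromosome 8 all 13 neighbours of TNFRSF10B, the members TNFRSF10A and TNFRSF10D among them, were likewise below 0. Their median was -0.40, while the chromosome's median was 0.13. TNFRSF10B itself stood at -0.09, and TNFRSF10D at -0.64 had 9 neighbours, TNFRSF10A and TNFRSF10B among them, with a median of -0.26. What these local shifts contribute to the members' values was not tested.

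**Figure D5:**
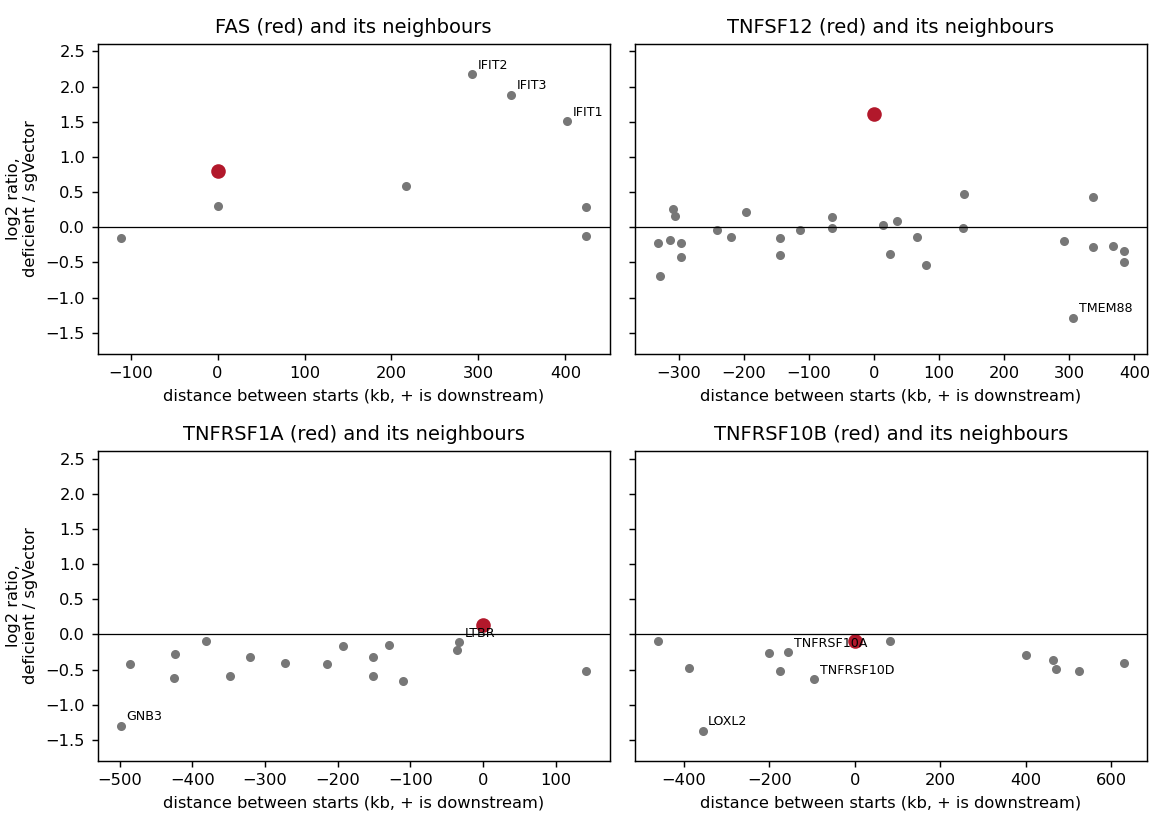
Log2 ratio against the distance between gene starts in kb for protein-coding genes past the floor within 500 kb of FAS, TNFSF12, TNFRSF1A and TNFRSF10B, with the member in red and its neighbours in grey. TNFSF12 at 1.60 stands alone among its neighbours, FAS shares its side of 0 with 6 of 8, and TNFRSF1A at 0.13 lies above all 17 of its neighbours.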

How the data were processed

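PolyA RNA (per the labels) of SUM-159 cells was sequenced in 2 libraries, 1 per group. The authors deposited RPKM values and exon lengths per gene, per the file headers. The tools named per the submitters' processing notes are featureCounts 1.6.4 and Subread, with builds hg19 and GRCh37. Strand handling, annotation release and aligner: not given in the sources used here. Values of genes that overlap another row are therefore uncertain. RPKM times length was a whole multiple of its smallest value for 100% of values (within 1e-06), which gave the reads.

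Gene types came from GENCODE release 29 by identifier (56817 of 60880 rows matched, with 41 pseudoautosomal Y rows left out) and symbols from a gene name table. Members, lists and rules were chosen with earlier results of these data known. Genes past the floor of 1 RPKM, or with 20 reads, were named with values, and in signalling lists the 3 highest, 3 lowest and all past 1.5-fold; 2 signalling genes enter the counts and medians but are not reported here. No p-values were computed. Alternatives covered pseudocounts, scalings, floors, thresholds and a lowess correction (share 0.3) on GC content and length. A reads floor of 3 (0.183 and 0.185 per 1000000) was used for a 0. Steps were tested on simulated data. Versions were matplotlib 3.10.9, statsmodels 0.14.6, scipy 1.17.1, pandas 2.3.3, numpy 2.4.6 and Python 3.11.15.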

Additional observations from a re-analysis of the deposited data

How the results depend on the processing

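The count of members at least 2-fold higher, 1, was 0 with a floor of 5 RPKM and at 4-fold and 3 with no floor. The count at least 2-fold lower, 1, was 0 with a floor of 5 RPKM and at 4-fold and 2 with a floor of 0.5 RPKM or none. At 1.5-fold the 3 higher members were 1 with a floor of 5 RPKM and 7 with none. The 5 lower members were 2 with a pseudocount of 1 RPKM, TMM scaling, the GC and length correction, a floor of 5 RPKM or the whole interval past the fold, 8 with a floor of 0.5 RPKM and 12 with none. For the signalling genes, whose alternatives were chosen after seeing the data, the 2 higher were 1 with a floor of 5 RPKM. They were 3 with no floor and 3 with the GC and length correction, where MAP3K14 stood at 0.65. The 2 lower were 3 with no floor and 1 with the GC and length correction, where SPPL2B stood at -0.52. Floors, thresholds and the interval rule change these counts by their own construction, and for the others the cause was not tested. TNFRSF14, TNFRSF10D and CD70 lost 1.5-fold under a pseudocount of 1 (-0.35, -0.57 and -0.45), TMM (-0.55, -0.56 and -0.58) and the GC and length correction (-0.41, -0.57 and -0.39), TNFRSF14 also with centring (-0.58), and CD40 with a pseudocount of 1 (0.52). Of 64 values of the 8 members past 1.5-fold under 8 alternatives, 53 kept that call and 0 changed sign; among the other members past the floor RELT changed sign, to 0.00 with TMM and 0.11 with the GC and length correction. The receptor median ranged from -0.27 to -0.10 and the ligand median from -0.47 to -0.06; a floor of 5 RPKM leaves no ligand. Of 136 values of the members past the floor under the 8 alternatives, 7 lay outside the counting interval. With the GC and length correction these were TNFRSF12A (-0.59), TNFRSF1B (-0.10), TNFRSF1A (0.31) and LTBR (-0.003). The others were TNFRSF1A and LTBR with TMM (0.21 and -0.04) and TNFRSF21 with a pseudocount of 1 (-1.10). Members with fewer than 20 reads are limited by depth. No paired analysis was possible because each group has 1 library.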
